A study of Mus musculus with 5 samples.

Results

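Caspases are the cysteine proteases that carry out apoptosis, and their activity is set by adaptors that assemble them and by inhibitors that hold them back. The 8 genes described here are 4 caspases (Casp2, Casp6, Casp8 and Casp9) and 4 of their regulators (Apaf1, Cflar, Fadd and Birc6). They were chosen by function, with earlier results of these data known, and found by symbol in the deposited expression table of 32285 genes. All 8 were in the table, and all 8 passed the filter on low values, which asked for a level of 1 or more in 2 or more libraries and left 12734 genes for testing. The table came from RNA-seq of mouse embryos at the 2-cell stage, made with Smart-seq2 from total RNA. Eggs were fertilised in vitro, and those with 2 pronuclei were moved at random to KSOM medium. They were cultured there for 24 h with 25 nM PNMC (3 libraries) or with an equal volume of its solvent DMSO (2 control libraries). The labels name no strain or genotype, do not spell out PNMC, and do not say how many embryos a library held or whether libraries came from separate cultures. The p-values below therefore reflect the spread among these 5 libraries, and that spread may be technical.

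Apoptosis can start at death receptors on the cell surface, where the adaptor FADD recruits caspase-8, or at mitochondria, where released cytochrome c lets APAF1 assemble the apoptosome that activates caspase-9. Both routes converge on executioner caspases, of which caspase-6 is one. Caspase-2 is activated by a separate platform, the PIDDosome, and is known for its part in oocyte death. The FLICE-like protein encoded by Cflar competes with caspase-8 for FADD, and Birc6 encodes a giant inhibitor of apoptosis that is also a ubiquitin-conjugating enzyme.

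The difference between the 4 caspases and Cflar can be read in their coding sequences. Each line below gives 21 bases around the codon of the catalytic cysteine, in capitals, from the longest open reading frame of each gene in GENCODE release M21 (build GRCm38, coding strand, 5′ to 3′). For Cflar the capitals mark the codon at the same distance from the preceding glutamine codon, which was aligned with that of Casp8. They are shown because this codon separates the proteases from the homologue that has no protease activity of its own.
Casp2: atccaagcaTGTcgtggagat
Casp6: atccaggccTGTcggggtagc
Casp8: attcaggctTGCcaaggaagt
Casp9: atccaggccTGCggtggtgag
Cflar: attcagaacTATgagtcgtta
The capitals encode cysteine in the 4 caspases and tyrosine in Cflar. Over 437 aligned residues of the translated frames, Casp8 and Cflar were identical at 138, or 31.6%. In the same annotation they are next to each other among the protein-coding genes of chromosome 1, with Cflar first, and no exon of either overlaps that of another gene. The table has 1 level per gene, so the long and short forms of FLIP, and the splice forms of Casp2 and Casp9, cannot be told apart.

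The sources used here do not state the unit of the deposited levels, and no read depth was derived from them. Levels are therefore compared between libraries for 1 gene and are not ranked between genes. Library sums lay between 446010 and 454548, and between 17408 and 18595 genes were above 0, the most in control library 2. In bulk libraries of this kind, fewer cells with a transcript and less transcript per cell cannot be told apart. All 10 markers of oocytes and 2-cell embryos passed the filter. Of 10 cumulus cell markers, 1 passed and 4 (Ptx3, Foxl2, Amh and Inhba) were listed at 0 in every library. The summed level of that list was 3.54 and 8.12 in the controls and 2.21 to 3.12 after PNMC. Of 6 sperm and testis markers, 1 passed, with sums of 4.22 and 4.58 in the controls and 4.54 to 6.89 after PNMC. Of 6 blood markers, 2 passed, with sums of 8.31 and 12.9 in the controls and 5.15 to 10.2 after PNMC. Their part in the values below was not tested.

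None of the 8 genes changed with PNMC by limma's moderated test of log2(level + 1), with p-values adjusted by Benjamini-Hochberg over all genes tested. None passed at an unadjusted p under 0.05 either. Among all 12734 genes, 0% passed the adjusted threshold and 4.99% the unadjusted one. Higher levels after PNMC made up 34.6% of the genes at the unadjusted threshold, and this share was 50.6% under quantile normalisation and 57.6% after scaling to the median. The adjusted p was 0.993 for 7 of the 8 genes and 0.996 for Casp8. The estimated change was above 0 for 6 genes and below 0 for Casp6 and Birc6, with a median of 0.15 on the log2 scale, where 43.1% of all tested genes were above 0 and their median was -0.05. The 3 PNMC levels lay above both control levels for Cflar and Casp9 and overlapped the controls for the other 6 genes. Such groups without overlap, in either direction, made up 19.9% of all genes tested, and those with PNMC higher made up 7.97%. Casp9 had control library 2 under the filter's minimum of 1. Its controls alone would not have met the filter, so nothing is read from its separation.

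**Figure D1:**
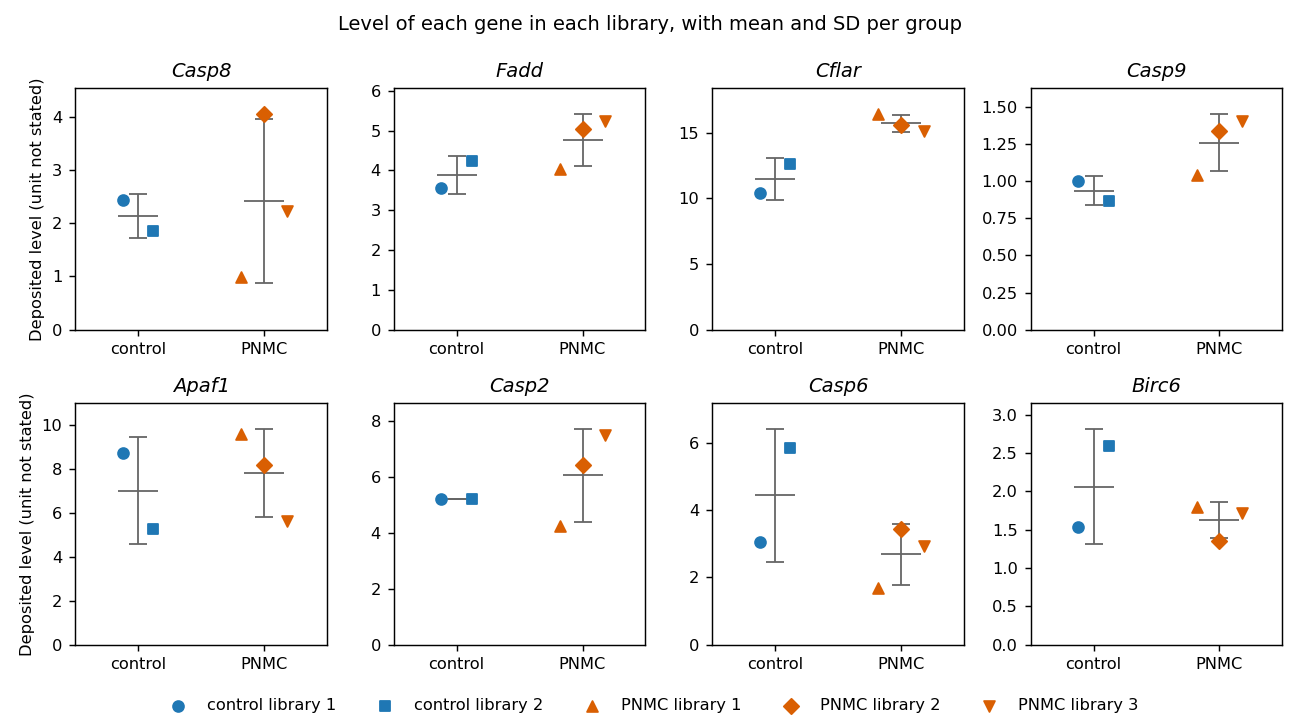
Deposited level (unit not stated, axes from 0) of each of the 8 genes in the 2 control libraries and the 3 PNMC libraries, 1 point per library. Grey bars are the group mean and SD. The PNMC points lie above both controls for Cflar and Casp9. The controls of Casp9 alone would not have met the filter. The PNMC points of Casp8 run from 0.987 to 4.05, on both sides of the controls.

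Among the genes of the death receptor route, Cflar, which encodes the competitor of caspase-8, had the smallest p of the 8 genes. Control libraries 1 and 2 had levels of 10.4 and 12.6. PNMC libraries 1, 2 and 3 had levels of 16.4, 15.6 and 15.1. The lowest PNMC library thus lay above the higher control, and the PNMC libraries were close to each other. The control mean was 11.5 ± 1.59 (SD, n = 2) and the PNMC mean 15.7 ± 0.654 (SD, n = 3), a ratio of 1.37. The log2 change was 0.42 (SE 0.227, 95% interval -0.06 to 0.91, limma adjusted p = 0.993), with an unadjusted limma p of 0.0836. Of the 12734 genes tested, 1055 had a smaller p than Cflar. Without control library 1, the lowest of the 5, the change was 0.29, and without control library 2 it was 0.55. After scaling libraries to the same median it was 0.51, with an unadjusted limma p of 0.0430 and an adjusted p of 0.938.

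Casp8 encodes the initiator caspase that is recruited by FADD. The control levels were 2.43 and 1.85, and PNMC libraries 1, 2 and 3 were at 0.987, 4.05 and 2.23. The lowest and the highest of the 5 values were both PNMC libraries, 4.10-fold apart. The log2 change was 0.03 (SE 0.422, 95% interval -0.88 to 0.94). Its sign was not stable. It was -0.30 without PNMC library 2, -0.11 without control library 2 and -0.0185 with a pseudocount of 0.1. On the log2(level + 1) scale, which understates changes of low genes, the interval leaves room for almost 1 unit in either direction. With a pseudocount of 0.1 it was wider, from -1.33 to 1.30.

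Fadd, the adaptor between death receptors and caspase-8, was at 3.55 and 4.23 in the controls and at 4.03, 5.03 and 5.24 after PNMC. PNMC libraries 2 and 3 lay above both controls, and PNMC library 1 lay between them. The means were 3.89 ± 0.481 (SD, n = 2) and 4.77 ± 0.646 (SD, n = 3), and the log2 change was 0.24 (SE 0.307, 95% interval -0.42 to 0.90). It was 0.14 without control library 1 and 0.34 without control library 2. An antisense gene, Faddos, overlaps the exons of Fadd, and since Smart-seq2 keeps no strand the reads of the overlap cannot be assigned. Faddos itself was listed between 0 and 1.29, with no separation of the groups.

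The balance of Cflar and Casp8 within a library was also computed, since their products compete for FADD. The ratio of the Cflar level to the Casp8 level was 4.27 and 6.83 in the controls. In PNMC libraries 1, 2 and 3 it was 16.6, 3.86 and 6.77. PNMC library 1 stood apart, with the highest Cflar level and the lowest Casp8 level of the 5, and the other PNMC libraries lay within or below the control range. That Casp8 level, 0.987, was under the filter's minimum of 1 and its read depth is unknown, so nothing is read from this high ratio. The ratio of Cflar to Fadd was 2.93 and 2.99 in the controls and 4.07, 3.10 and 2.89 after PNMC, again highest in PNMC library 1. The size of these ratios depends on the unstated unit, so only their differences between libraries can be read.

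For the mitochondrial route, Casp9, the initiator caspase of the apoptosome, was near the filter's minimum of 1. The control levels were 1.00 and 0.866, and PNMC libraries 1, 2 and 3 were at 1.04, 1.34 and 1.40. The groups did not overlap, but PNMC library 1 exceeded control library 1 by a margin smaller than the gap between the controls. Control library 2 was under the minimum, so the controls alone would not have met the filter. Nothing is read from this separation. The means were 0.935 ± 0.0973 (SD, n = 2) and 1.26 ± 0.191 (SD, n = 3), a ratio of 1.35. On the log2(level + 1) scale, which understates changes of low genes, the change was 0.22 (SE 0.393, 95% interval -0.62 to 1.07), and with a pseudocount of 0.1 it was 0.39. The exons of Casp9 share 94 bases with Cela2a and Ctrc on the opposite strand, which were listed at 0.736 to 2.04 and 0 to 0.716.

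Apaf1, the scaffold of the apoptosome, was at 8.73 and 5.28 in the controls and at 9.60, 8.18 and 5.63 after PNMC. Each group held both a low and a high library, and the spread within each group was larger than the distance between the means. These were 7.01 ± 2.44 (SD, n = 2) and 7.80 ± 2.01 (SD, n = 3), and the log2 change was 0.14 (SE 0.310, 95% interval -0.52 to 0.81). Without control library 2 the change was -0.17, and without PNMC library 1 it was -0.00265. The ratio of Apaf1 to Casp9 was 8.70 and 6.09 in the controls and 9.20, 6.12 and 4.02 after PNMC, with overlap between the groups.

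**Figure D2:**
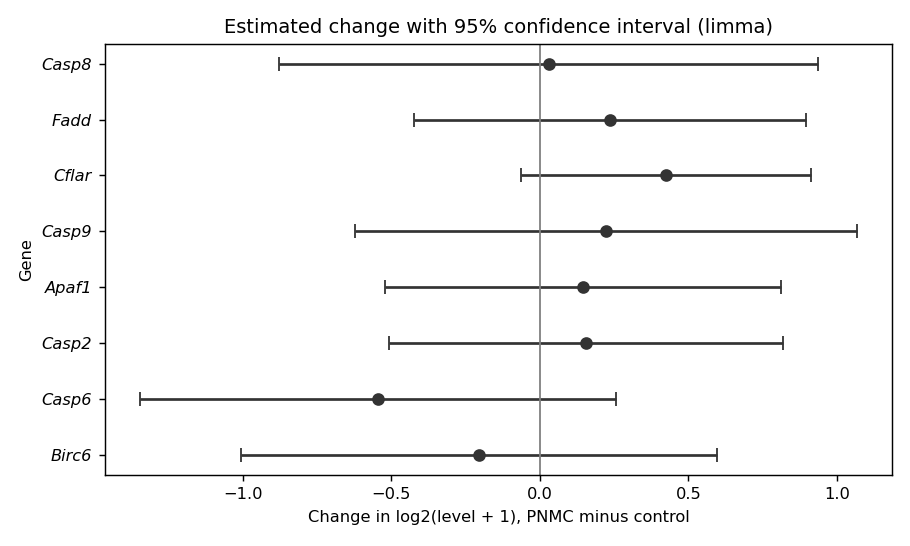
Change in log2(level + 1), PNMC minus control, for the 8 genes, with limma's 95% confidence interval from 5 libraries. Every interval includes 0; that of Cflar comes nearest to leaving it out, from -0.06 to 0.91, and that of Casp6 reaches lowest, to -1.35.

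Casp2 encodes the caspase of the PIDDosome. Its control levels were nearly equal, at 5.21 in both libraries, while the PNMC libraries were at 4.24, 6.44 and 7.50. PNMC library 1 thus lay below the controls and the other PNMC libraries above them. The means were 5.21 ± 0.00223 (SD, n = 2) and 6.06 ± 1.66 (SD, n = 3), and the log2 change was 0.15 (SE 0.308, 95% interval -0.51 to 0.82). The change was 0.00628 without PNMC library 3, 0.10 without PNMC library 2 and 0.36 without PNMC library 1. Agreement of 2 controls to this degree is no measure of the spread between control embryos, and limma's SE draws on the spread of all genes.

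Casp6, the executioner caspase that cleaves lamins, had the largest estimated change of the 8 genes. The control levels were 3.05 and 5.84, and PNMC libraries 1, 2 and 3 were at 1.69, 3.44 and 2.94. Control library 2 lay above all others, whereas control library 1 lay within the range of the PNMC libraries. The means were 4.45 ± 1.98 (SD, n = 2) and 2.69 ± 0.904 (SD, n = 3), a ratio of 0.605, and the log2 change was -0.54 (SE 0.372, 95% interval -1.35 to 0.26, limma adjusted p = 0.993). The change was -0.17 without control library 2 and -0.92 without control library 1.

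Birc6, the ubiquitin-conjugating inhibitor of apoptosis, was at 1.53 and 2.59 in the controls and at 1.79, 1.35 and 1.72 after PNMC. Control library 2 was again the highest, and control library 1 lay within the PNMC range. The means were 2.06 ± 0.753 (SD, n = 2) and 1.62 ± 0.236 (SD, n = 3), and the log2 change was -0.20 (SE 0.372, 95% interval -1.01 to 0.60). Without control library 2 the change was 0.0487. The opposite-strand gene Gm26749 shares exonic bases with Birc6 and was listed at 0.0240 in control library 1 and at 0 elsewhere.

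The libraries did not deviate in the same way across the 8 genes. PNMC library 1 was the lowest of the 5 for Casp2, Casp6 and Casp8 and the highest for Cflar and Apaf1. PNMC library 3 was the highest for Casp2, Casp9 and Fadd and the lowest for none. Control library 2 was the highest for Casp6 and Birc6 and the lowest for Casp9 and Apaf1. The highest level was between 1.48 times the lowest (Fadd) and 4.10 times the lowest (Casp8). The SD over all 5 libraries was 16.0% of the mean for Fadd, 17.7% for Cflar and 20.3% for Casp9. It was 44.8% for Casp6 and 48.4% for Casp8.

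**Figure D3:**
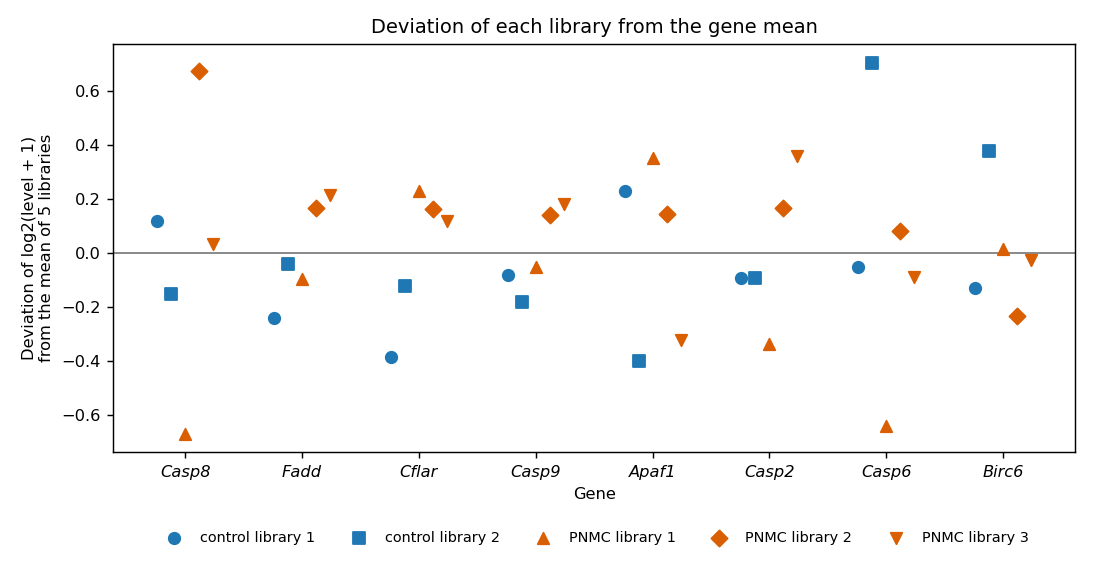
Deviation of log2(level + 1) in each library from the mean of that gene over the 5 libraries, for the 8 genes. PNMC library 1 runs from -0.67 for Casp8 to 0.35 for Apaf1, and control library 2 from -0.40 for Apaf1 to 0.71 for Casp6.

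The precision of these 5 libraries sets what could be seen. The median SE of the 8 changes was 0.341, against 0.305 over all tested genes. For 5 of the 8 genes (Casp2, Casp8, Apaf1, Cflar and Fadd) the 95% interval lay within 1 unit of log2(level + 1) in either direction, as it did for 61.4% of all tested genes. That scale understates changes of low genes. With a pseudocount of 0.1, the interval ran from -1.33 to 1.30 for Casp8 and from -0.50 to 1.07 for Fadd. It stayed within 1 log2 unit for Casp2, Apaf1 and Cflar. For Casp6 and Birc6 the interval reached below -1, and for Casp9 it reached above 1.

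The 3 genes whose profile over the 5 libraries was nearest to that of Cflar were Stat6, Pard3bos2 and Gm9833. Nearness was the root mean square difference of the log2(level + 1) profiles, each centred on its own mean, and it was 0.0390, 0.0409 and 0.0462. Stat6, the transcription factor of interleukin-4 signalling, was at 21.0 and 26.0 in the controls and at 34.1, 30.9 and 32.3 after PNMC. It was chosen for its likeness to Cflar, so its similar profile is no result of its own.

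The other genes of the pathway were taken from a list of 68, of which 67 were found in the table and 43 passed the filter. None of the 43 changed at the adjusted threshold with limma, and 1, Bcl2l10, had an unadjusted p under 0.05, where the share over all genes was 4.99%. That count was 3 without control library 2, 2 without PNMC library 2, and 0 without PNMC library 1, without PNMC library 3, under quantile normalisation and with the replicate block. Among the 43, Casp1 and Tradd met the filter through PNMC libraries alone. Estimated changes were above 0 for 18 and below 0 for 25, with a median of -0.06 against -0.05 over all genes. That median became 0.02 under quantile normalisation, after median scaling and without PNMC library 2. The groups did not overlap for 9 of the 43, with PNMC higher in 3 and lower in 6. The share over all genes was 19.9% (7.97% higher and 11.9% lower). Casp1 is counted among the 3, and Casp1 and Tradd among the 18 above 0, so nothing is read from these counts.

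At the surface end of the pathway, 1 of 6 death receptor and ligand genes passed the filter, and no value of the 6 in any library exceeded 1.59. The gene that passed was the ligand gene Tnfsf10. The receptor gene Tnfrsf1a was listed at 0 in all libraries, and Fas was at 0.304 in control library 1 and at 0 elsewhere. The receptor gene Tnfrsf10b was above 0 in every library, from 0.0595 to 0.609, without reaching the filter's minimum. These genes were named after their values were seen.

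Of 9 adaptors and kinases, 6 passed the filter, 3 with changes above 0 and 3 below. Tradd, which met the filter through PNMC libraries alone, is among those above 0. Pidd1, the core of the PIDDosome that activates caspase-2, had the smallest p of the list among genes with lower values. It was at 4.02 and 5.65 in the controls and at 1.97, 3.91 and 2.06 after PNMC, with every PNMC value under both control values, that of PNMC library 2 by a small margin. The log2 change was -0.70 (SE 0.356, 95% interval -1.47 to 0.06, limma adjusted p = 0.986). Its partner Casp2 had no such separation.

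All 5 tested genes of mitochondrial proteins on the list had estimated changes below 0, from -0.41 to -0.09, and none passed the test. The grouping of the list by role was not planned. Among the role groups with several tested genes, only this one had a single direction, so nothing is read from it. Over all genes 43.1% were above 0. Of the 5, Cyct was above 0 under quantile normalisation (0.02), without control library 1 (0.54), and without PNMC library 3 or with the replicate block (0.37). Cycs, which encodes the cytochrome c that binds APAF1, was at 17.8 and 25.2 in the controls and at 16.2, 16.8 and 14.2 after PNMC. The groups did not overlap, and the log2 change was -0.41 (SE 0.229, limma adjusted p = 0.993). Of 12 inhibitors, 8 passed the filter, 5 with changes above 0 and 3 below, with a median of 0.05.

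Of 12 caspase substrates and effectors, 9 passed the filter, 4 with changes above 0 and 5 below. Parp1, a DNA damage sensor cleaved in apoptosis, was at 17.2 and 15.4 in the controls and at 12.4, 12.0 and 14.2 after PNMC (log2 change -0.32, SE 0.226, limma adjusted p = 0.993). Gsdme, whose product forms membrane pores once cleaved, was at 1.21 and 2.40 in the controls and at 2.65, 2.71 and 2.46 after PNMC (log2 change 0.40, SE 0.362). Parp1 was lower and Gsdme higher in all 3 PNMC libraries than in both controls, Gsdme by a small margin in PNMC library 3. Both, like Pidd1, Cycs, Casp1 and Bcl2l10, were named for a small p, which favours groups without overlap. Over all genes, 19.9% had such groups.

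Casp1, the inflammatory caspase, was at 0.915 and 0.933 in the controls and at 1.48, 1.58 and 2.36 after PNMC (log2 change 0.53, SE 0.384, limma adjusted p = 0.993). Both controls were under the filter's minimum of 1, so Casp1 was tested through the PNMC libraries alone, and nothing is read from its separation. Of 11 genes of the BCL2 family, 8 passed the filter, 3 with changes above 0 and 5 below. Bcl2l10, a member abundant in oocytes, was at 2063 and 2445 in the controls and at 2573, 2473 and 2761 after PNMC (log2 change 0.21, SE 0.0923, limma adjusted p = 0.973). The lowest PNMC library lay just above control library 2.

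**Figure D4:**
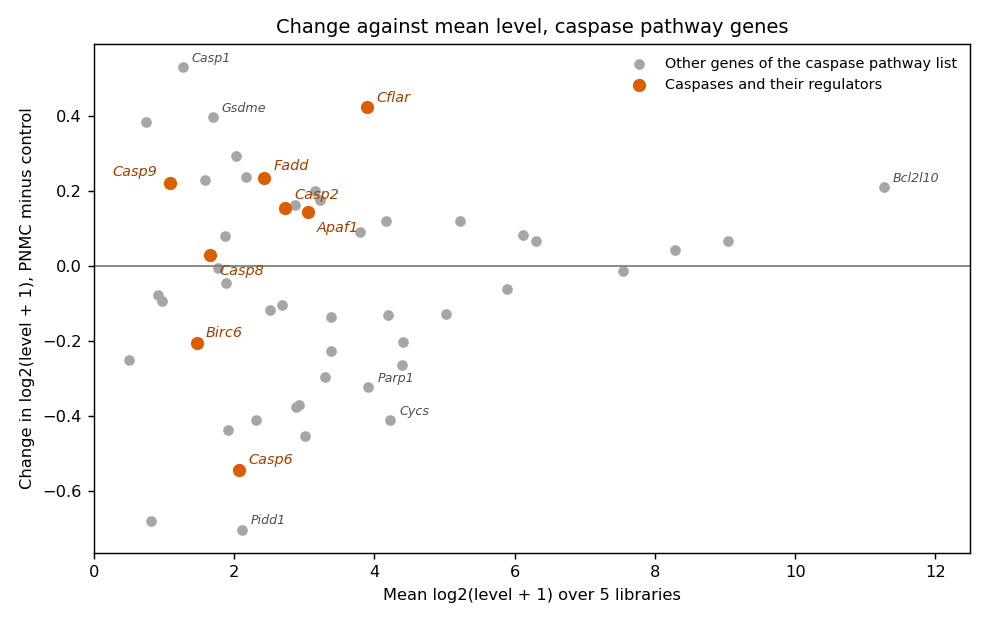
Change in log2(level + 1), PNMC minus control, against the mean log2(level + 1) over 5 libraries, for the 8 caspases and regulators (orange) and the 43 other tested genes of the pathway list (grey). The 8 genes run from -0.54 (Casp6) to 0.42 (Cflar) and the other genes from -0.70 (Pidd1) to 0.53 (Casp1), or to 0.40 (Gsdme) without the 2 genes that met the filter through PNMC libraries alone.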

How the data were processed

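The authors deposited 1 table with a normalised expression signal per gene symbol and library. The sources used here give neither its unit nor its annotation. Per the submitters' processing notes, DESeq2 1.16.1, HTSeq, HISAT2 2.0.5, Trimmomatic and the build GRCm39 were used, with no roles stated. Values are fractional, so no count test was run, and depth is unknown. Columns were matched to samples by title, and 0 columns were left out.

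The following was computed here with limma 3.58.1 in R 4.3.3 and with Biopython 1.88 in Python 3.11.15. The 12734 of 32285 genes that reached 1 in 2 or more libraries were fitted as log2(value + 1) with limma (trended prior variance, robust estimation), PNMC against control with no covariate, all 5 libraries, Benjamini-Hochberg threshold 0.05. Casp8 and Cflar frames were translated and aligned with BLOSUM62. The 8 genes and the pathway list were chosen with earlier results of these data known. Of the list, the 3 genes of each direction with the smallest p are named, with others where said. Some genes of the list are not reported here by name. Exon overlaps come from GENCODE M21 on GRCm38, so no coordinates are given.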

Additional observations from a re-analysis of the deposited data

How the results depend on the processing

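None of the 8 genes and none of the pathway list passed the adjusted threshold in any of 11 alternatives, which were no filter, a minimum of 10 (which left Cflar of the 8), a pseudocount of 0.1, quantile normalisation, median scaling, a replicate block and each library left out. The lowest adjusted p of the 8 genes was 0.891. At an unadjusted limma p under 0.05, 1 of the 8 passed with median scaling (Cflar) and 0 otherwise. Casp2, Casp6, Casp9, Cflar and Fadd kept their direction throughout. Casp8 turned to -0.0185 with a pseudocount of 0.1, -0.11 without control library 2 and -0.30 without PNMC library 2. Apaf1 turned to -0.17 without control library 2 and -0.00265 without PNMC library 1, and Birc6 to 0.0487 without control library 2. With 1 library left out, Casp8 ranged from -0.30 to 0.37, Apaf1 from -0.17 to 0.46 and Birc6 from -0.46 to 0.0487. The cause was not tested. Over all genes, the number past the threshold ranged from 0 to 1 with 1 library left out, the 1 being Gm13103 without PNMC library 1. With a control left out, the lone control was assumed to vary like the other libraries. Libraries with the same number did not deviate together (correlation over genes -0.0585 for number 1 and -0.0433 for number 2). With the replicate block 0 genes passed, and the change of Cflar was 0.45. Number 3 exists only as a PNMC library, so the block takes that library out of the estimate. The changes with the block therefore equal those without PNMC library 3, and only their SE differs. The unknown depth limits what can be said of the lowest levels, such as Casp9.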
